A study of Mus musculus with 18 samples.

Results

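Livers of mice that lack the farnesoid X receptor (FXR, gene Nr1h4) in every tissue were compared with livers of wild type (WT) mice, both given vehicle only. The members are the arrays titled for the whole-body FXR knockout (KO) with vehicle and for WT with vehicle, chosen by these titles alone: 3 and 3 arrays, so 6 of the 18 in the series. Each array measured total liver RNA, and all mice were males of 10 to 16 weeks on a C57BL/6J background by their labels. Both groups received vehicle by oral gavage 2 times (dose 0 mg/kg), and liver was taken 2 h after the last gavage. The other 12 arrays are 3 of liver FXR KO mice with vehicle and 3 of each genotype with GW4064, a synthetic FXR agonist, at 150 mg/kg. Liver FXR KO mice carry Cre by their label (AFXR Cre+); the promoter that drives it is not given in the sources used here. Whole-body KO mice lack FXR in gut and all other organs too, while the arrays read liver only. The sources used here do not state whether WT mice were littermates, so the breeding of the line and the loss of FXR cannot be told apart.

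FXR is a nuclear receptor for bile acids, and is abundant in liver and intestine. With its partner, the retinoid X receptor, it binds DNA and switches on genes such as Nr0b2, which encodes the repressor SHP, and Abcb11, the canalicular bile salt export pump. In intestine it switches on Fgf15, a hormone that reaches the liver and, like SHP, holds down Cyp7a1, the rate-limiting enzyme of bile acid synthesis. The comparison without agonist asks what the liver expresses differently when the receptor is missing everywhere and no synthetic ligand is given.

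The DNA element that FXR binds most often is an inverted repeat with 1 base between its arms (AGGTCA, any base, TGACCT). RefSeq promoters (GRCm38.p6, 300 bases around each annotated start, of which a gene can have several) were searched for it with up to 2 mismatches; the element reads the same on both strands. A match is shown for the known target Abcb11, whose level is given later, and for Homer2, a scaffold protein of synapses, because it was the only gene called lower in the KO with a window that held one. Capitals mark the match, and the flanking bases are in lower case.
Abcb11: tggactttAGGCCATTGACCTataagcaa
Homer2: aaatacacAGATCAGGGACCTtgggtca
The Abcb11 match has 1 mismatch, lies on the minus strand at chr2:69342659-69342687 and is centred 57 bases before its start. That of Homer2 has 2 mismatches, lies on the minus strand at chr7:81692916-81692943 and is centred 36 bases after a start that lies within the gene, not at its outer end. Windows of 1 of 53 genes lower in the KO (1.89%) and 0 of 53 genes higher in it held a match, beside 125 of 9888 measured genes (1.26%) and 364 of 27025 genes in the table (1.35%). Homer2, outside the rule for named genes, read 8.70, 8.92 and 8.64 in WT and 7.57, 7.81 and 8.03 in KO on the log2 scale (difference -0.95, SE 0.18, limma adjusted p = 0.014). A match describes these letters only, and 53 of the 67 lower and 53 of the 74 higher genes had a window in the table.

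Nr1h4 itself was read first, as it checks the labels. Values here and below are log2 expression as deposited after robust multi-array averaging (RMA), so 1 unit is a change of 2 times. WT arrays 1 to 3 read 9.01, 9.39 and 8.83 for Nr1h4, and whole-body KO arrays 1 to 3 read 4.21, 4.27 and 4.12. The difference was -4.88 (SE 0.14), a fall of 29.4 times, with an adjusted p of 1.19e-12 by limma. All 6 KO values lay below the median of all probe sets on their arrays (5.96 to 6.00 over the 18 arrays), counting the 3 KO arrays with GW4064 at 3.98 to 4.30. Liver FXR KO arrays with vehicle read 4.46, 4.29 and 4.63, and their difference from the whole-body KO did not pass (-0.26, adjusted p = 0.50). A single probe set stood for Nr1h4, and where its probes lie relative to the deleted part is not given in the sources used here.

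The arrays were of liver by their content. Alb, serum albumin, read 14.86 to 14.96 in the 6 arrays, whereas Epcam and Krt19, which mark bile duct cells, read 4.62 to 4.84 and 5.15 to 5.35. Of 14 measured hepatocyte markers, 0 rose and 0 fell, with a median difference of -0.06 beside -0.01 over all genes. Relative expression, each gene minus its median over the 18 arrays, had an interquartile range in the 6 arrays between 0.162 and 0.197. Of the other 12, the arrays of WT with GW4064, replicate 1, and of whole-body KO with GW4064, replicate 3, stood apart at 0.259 and 0.231, and values without this pair are given beside most results from GW4064 arrays.

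Across 12394 genes, 74 were higher (0.597%) and 67 lower (0.541%) in the whole-body KO at a limma adjusted p under 0.05. All 141 had 3 KO arrays on one side of 3 WT arrays, but selection by a low p on the same arrays favours such genes. The share of all genes with that separation is not given here, so it adds no support to the calls. Changes of the 141 genes were mostly modest: 21 of the higher and 20 of the lower genes changed by 2 times or more, 52 and 40 by 1.5 times or more, and the median log2 differences were 0.72 and -0.69. At the thresholds that the methods give, an unadjusted p under 0.05 and 1.5 fold, the same fit counted 127 higher (1.02%) and 82 lower (0.662%). The number called rests on few arrays: without WT replicate 1, 2 or 3 there were 41, 36 and 48 higher and 42, 37 and 53 lower genes, and without KO replicate 1, 2 or 3 there were 28, 49 and 28 higher and 39, 36 and 28 lower. Without the pair of GW4064 arrays that stood apart, which enter only through the shared estimate of the spread, the counts were 141 and 125.

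**Figure D1:**
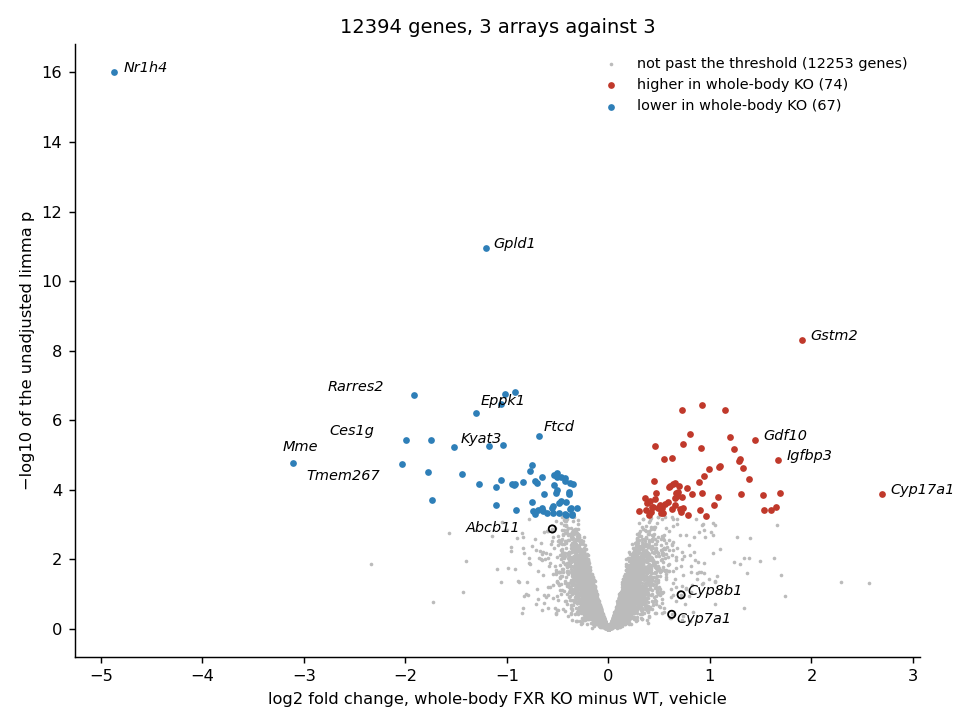
Each point is 1 of 12394 genes, with the log2 difference of whole-body KO minus WT (vehicle, 3 arrays against 3) on the x axis and minus log10 of the unadjusted limma p on the y axis. Red and blue points are the 74 higher and 67 lower genes at an adjusted p under 0.05, Nr1h4 lies far to the left at -4.88, and the open circles mark Abcb11, Cyp7a1 and Cyp8b1, which did not pass.

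The largest falls after Nr1h4 were in genes of several functions. Mme encodes neprilysin, a peptidase of the cell surface. Its WT arrays read 7.43, 7.20 and 6.56 and its KO arrays 4.27, 3.74 and 3.85, a fall of 8.63 times (log2 -3.11, SE 0.52, adjusted p = 0.0069). In liver KO arrays Mme read 4.35, 3.85 and 4.03, within the range of the whole-body KO or just above it. Both probe sets of Mme were lower (-3.11 and -1.46).

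Rarres2 encodes chemerin, a secreted attractant of immune cells that liver makes in large amounts. WT arrays read 12.44, 12.34 and 12.65 and KO arrays 10.67, 10.79 and 10.23, with no overlap and a mean difference of -1.91 (SE 0.22, adjusted p = 0.00038). Its 3 probe sets were all lower (-1.91 to -0.24). Olig1, a basic helix-loop-helix factor best known from oligodendrocytes, read 7.75, 7.31 and 7.08 in WT and 5.92, 5.85 and 5.05 in KO (difference -1.77, SE 0.31, adjusted p = 0.0098).

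Ces1g, a carboxylesterase that cleaves lipid esters, read 10.30, 10.21 and 9.89 in WT and 8.18, 8.24 and 7.99 in the whole-body KO (3.99 times lower, log2 SE 0.30, adjusted p = 0.0027). In the liver KO it read lower still, at 6.18, 6.51 and 7.04. The whole-body KO was 1.56 higher than the liver KO (adjusted p = 0.033), and 1.65 higher in the GW4064 arrays (adjusted p = 0.010), or 1.47 without the pair (adjusted p = 0.0077). Of 13 measured carboxylesterases, Ces1g was the 1 that fell and 0 rose.

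Gpld1, a phospholipase that cuts glycosylphosphatidylinositol anchors from membranes, had the tightest values of any fall described here and was picked out after they were seen. It read 11.06, 11.02 and 10.90 in WT and 9.77, 9.82 and 9.76 in KO (difference -1.21, SE 0.07, adjusted p = 7.11e-08). The liver KO again read lower, at 9.41, 9.37 and 9.50, and the whole-body KO lay 0.36 above it (adjusted p = 0.041).

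Kyat3, a kynurenine aminotransferase, read 11.55, 11.24 and 11.52 in WT and 10.34, 9.45 and 9.97 in KO (difference -1.52, SE 0.23, adjusted p = 0.0033). Here the liver KO stayed near WT, at 11.13, 10.93 and 11.09. The whole-body KO lay 1.13 below the liver KO (adjusted p = 0.040), and in the GW4064 arrays their difference was -1.05 (adjusted p = 0.028), or -1.37 without the pair (adjusted p = 0.0038). Tmem267, a membrane protein, read 6.75, 7.38 and 6.66 in WT and 5.32, 4.70 and 4.67 in KO (difference -2.03, adjusted p = 0.0073), with the liver KO above the whole-body KO at 6.80, 5.88 and 6.25, in part within the WT range, and not called different from the whole-body KO (adjusted p = 0.078).

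The other large falls were of Hspb1, a small heat shock protein (-1.74), Igfbp2, a binding protein of insulin-like growth factors (-1.44), Eppk1, the cytoskeletal linker epiplakin (-1.31), and Itih5, an inter-alpha-trypsin inhibitor chain (-1.27). For Hspb1 the WT arrays read 9.52 to 9.76 and the KO arrays 7.88 to 7.94, but WT arrays with GW4064 read 8.09, 8.26 and 8.88, between both groups, the first of them from an array that stood apart. Pigr, the receptor that carries immunoglobulin A into bile, fell from 12.55, 12.58 and 12.44 to 11.45, 11.75 and 11.25 (difference -1.04, SE 0.16, adjusted p = 0.0033), and both of its probe sets were lower.

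Cyp17a1 had the largest rise. It encodes the P450 that makes androgen precursors from progestagens. WT arrays read 6.96, 6.82 and 8.70 and KO arrays 10.00, 9.66 and 10.91. The mean difference was 2.69 (SE 0.54, adjusted p = 0.021), or 6.46 times, and the third WT array stood apart from the other WT arrays but below all KO arrays. Without WT replicate 1 or 2, or KO replicate 1 or 3, it no longer passed. It was the 1 of 18 measured steroid enzymes called higher, and 0 were lower. Liver KO arrays read 9.39, 9.42 and 9.54, between both groups.

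The glutathione transferases Gstm2 and Gstm3, which conjugate electrophiles to glutathione, rose by 1.91 and 1.54. For Gstm2, WT arrays read 8.67, 8.88 and 9.02 and KO arrays 10.58, 10.56 and 11.15 (SE 0.17, adjusted p = 2.04e-05), the lowest p among the rises. Liver KO arrays lay in between at 9.45, 9.78 and 9.87, and the whole-body KO was 1.06 above them (adjusted p = 0.013). Gstm3 read 10.83, 10.38 and 11.34 in WT and 12.18, 12.18 and 12.79 in KO (adjusted p = 0.040), a call lost when any array but WT replicate 3 was left out. Gstt2, of the theta class, rose by 0.99 (SE 0.17, adjusted p = 0.0088). These were the 3 that rose among 37 measured genes of phase II conjugation, of which 0 fell, with a list median of 0.14. Genes of the mu class have similar sequences, and whether probes read more than 1 of them was not tested.

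Among 45 measured genes of phase I metabolism, 3 rose and 1 fell, with a list median of 0.14. Cyp2c38 read 8.34, 9.65 and 8.21 in WT and 10.05, 10.16 and 11.07 in KO (difference 1.69, SE 0.34, adjusted p = 0.021). Cyp2g1 read 5.07, 5.96 and 5.38 against 6.48, 6.90 and 7.17 (difference 1.38, adjusted p = 0.013). Fmo1 rose by 0.56 whereas Fmo5 fell by 0.55, both of them flavin monooxygenases. The NRF2 antioxidant list, which shares targets with glutathione conjugation, had 0 genes higher and 0 lower of 21 (median -0.04).

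Further rises concerned growth factor and signalling genes. Igfbp3, the main carrier of insulin-like growth factors in blood, read 5.52, 5.95 and 6.87 in WT and 7.61, 7.80 and 7.95 in KO (difference 1.67, SE 0.28, adjusted p = 0.0062). Sgk1, a kinase induced by serum and glucocorticoids, rose by 1.60 (adjusted p = 0.039), and Rcan2, an inhibitor of the phosphatase calcineurin, by 1.65 (adjusted p = 0.037). Gdf10, a secreted ligand of the bone morphogenetic protein family, read 6.04, 5.80 and 5.54 in WT, 7.13, 7.14 and 7.43 in KO and 6.23, 5.95 and 6.18 in liver KO. It was 1.44 above WT (SE 0.21, adjusted p = 0.0027) and 1.11 above the liver KO (adjusted p = 0.035). Snhg11, a long non-coding RNA, rose by 1.52 and Pdk1, a kinase that inhibits pyruvate dehydrogenase, by 1.33.

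**Figure D2:**
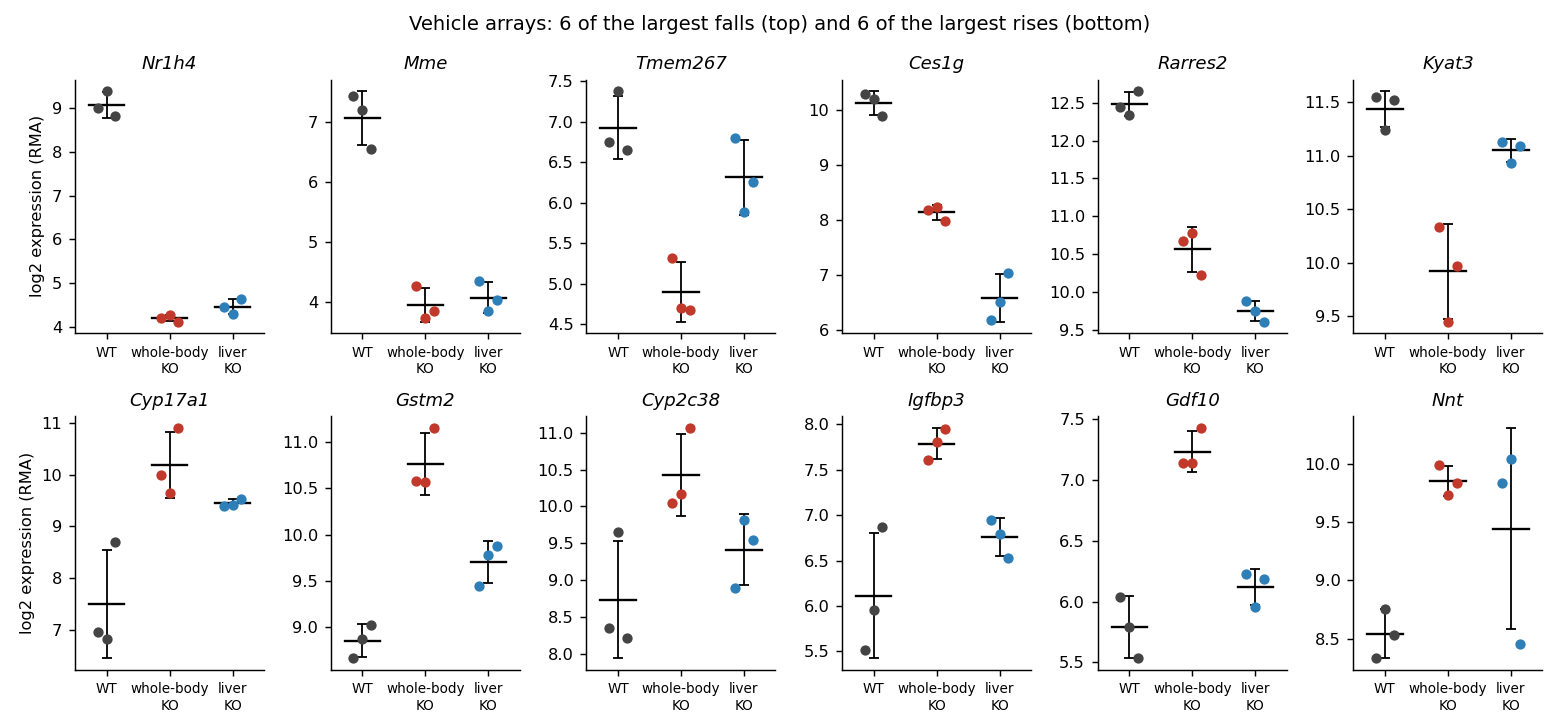
Log2 expression of 6 genes among the largest falls (top) and 6 among the largest rises (bottom) in the vehicle arrays of WT, whole-body KO and liver KO. Points are arrays, the line is the mean and the bar 1 SD (n = 3). Whole-body KO and WT points do not overlap in any panel because the rule for these genes required it. For Ces1g and Rarres2 the liver KO lies below the whole-body KO, while for Kyat3 and Gdf10 it lies near WT.

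Bile acid genes, the best known genes under FXR, gave no calls without agonist. Of 22 measured genes of bile acid synthesis and conjugation 0 rose and 0 fell (median 0.02), and likewise 0 and 0 of 16 transporters (median -0.02). Cyp7a1 read 10.75, 10.44 and 10.61 in WT and 10.85, 11.10 and 11.73 in KO, a difference of 0.62 that was smaller than its error (SE 0.69, adjusted p = 0.75). The fit takes that error from all 18 arrays, and WT arrays with GW4064 read 5.82, 7.18 and 10.19; with the 6 compared arrays alone the adjusted p for Cyp7a1 was 0.21 (unadjusted 0.012). Its other probe set differed by 1.21. Cyp8b1, which makes cholic acid, read 12.23, 11.81 and 11.65 against 12.80, 12.41 and 12.63 (difference 0.72, SE 0.42, adjusted p = 0.49, and 0.077 with the 6 arrays alone). For both genes the KO arrays all lay above the WT arrays, but neither passed. Differences of Cyp27a1, Baat, Slc27a5 and Cyp7b1 were -0.00, 0.06, -0.19 and -0.65, and none passed.

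Abcb11, whose promoter match is shown above, had the lowest adjusted p among the transporters. It read 11.59, 11.44 and 11.66 in WT and 11.14, 10.95 and 10.93 in the whole-body KO, without overlap, and the difference of -0.55 (SE 0.14) had an adjusted p of 0.084. It passed with the 6 compared arrays alone (adjusted p = 0.037), with array weights (0.029) and without the pair of GW4064 arrays (0.0026). In the GW4064 arrays its difference was -0.83 (adjusted p = 0.0028), and -0.63 without the pair that stood apart (adjusted p = 0.0056). The 3 liver KO arrays with vehicle read 10.96 to 11.02. Slc22a7 had a larger fall, from 8.81, 8.66 and 7.73 in WT to 7.26, 7.20 and 6.52 in whole-body KO. Its difference of -1.41 (SE 0.49) did not pass (limma adjusted p = 0.21), but it passed without the pair of GW4064 arrays. With GW4064 its difference was -2.28 (adjusted p = 0.013), and -1.94 without the pair (adjusted p = 0.021). Abcb4, the phospholipid flippase, Slc10a1, the main bile acid uptake transporter, and Slco1a1 differed by -0.09, 0.23 and 0.10, and none passed.

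The feedback genes gave no call either. Nr0b2 read 7.85, 7.86 and 8.21 in WT and 8.77, 8.16 and 8.16 in KO, with overlap (difference 0.39, SE 0.34, adjusted p = 0.67). With GW4064 the same gene read 10.84, 9.59 and 9.04 in WT and 8.04, 7.77 and 7.04 in KO (difference -2.20, adjusted p = 0.0014, and -1.41 with an adjusted p of 0.0056 without the pair that stood apart). Fgf15, which intestine rather than liver makes, stayed at 3.95 to 4.46 in all 6 vehicle arrays, below the median probe set. Of the 13 measured genes of FXR, its partners and its feedback, 1 fell, Nr1h4 itself, and 0 rose. Hnf4a, a master regulator of hepatocyte genes, was 0.41 lower in KO without passing (adjusted p = 0.054); it was called 0.47 lower than in the liver KO (adjusted p = 0.048). Its 4 probe sets were all lower, from -0.41, the one read here, to -0.03, and 1 of them had an unadjusted p under 0.05. Against WT Hnf4a passed in 5 other settings, with adjusted p-values of 0.035 to 0.049, but for the mean of its probe sets the adjusted p was 0.44. A list of 14 measured genes named as FXR targets in the study had 0 higher and 0 lower (median -0.08). The binding data of that study are from primary human hepatocytes given DMSO or GW4064, not from these livers. The 19 measured genes of taurine and sulfur amino acids had 0 and 0 (median -0.04).

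In the breakdown of histidine 3 of the 4 enzymes fell. The pathway runs from histidine through urocanate to glutamate and one-carbon units, and its enzymes in order are Hal, Uroc1, Amdhd1 and Ftcd. Hal read 10.53, 10.80 and 11.31 in WT and 9.12, 9.20 and 9.08 in KO, a fall of 3.36 times (log2 -1.75, SE 0.26, adjusted p = 0.0027). Amdhd1 fell by 1.10 on the log2 scale (SE 0.24, adjusted p = 0.034) and Ftcd by 0.69 (SE 0.10, adjusted p = 0.0027). Uroc1 was 0.47 lower and did not pass (adjusted p = 0.065), and its other probe set went the other way by 0.27. Liver KO values lay close by for Hal (9.17, 9.30 and 9.19) and Amdhd1 (9.43, 9.60 and 9.50). In the whole list of 22 measured genes of histidine and amino acid breakdown these 3 fell and 0 rose, and its median was -0.06.

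Hal and Amdhd1 lie on the same chromosome as Nr1h4, 4.04 and 4.07 Mb from its start, so genes beside the targeted locus were read as a set. Ftcd lies on that chromosome too but further away, with its start at base 76575648 beside 89454234 for Nr1h4. Uroc1 lies on chromosome 6. DNA beside a targeted gene is inherited with it from the embryonic stem cells or strain in which it was made. Within 10 Mb of Nr1h4 on either side, 160 other genes were measured, of which 1 rose and 3 fell (2.5%, beside 1.14% of all genes called). Besides Hal and Amdhd1 these were Nfyb, a subunit of a CCAAT-box factor, 6.71 Mb away (-0.55), and Ikbip, 1.63 Mb away (0.59). In the liver KO the 4 genes read -1.66 (Hal), -1.05 (Amdhd1), -0.50 (Nfyb) and 0.51 (Ikbip) relative to the same WT arrays. The median of the 160 genes was -0.03, and with GW4064 11 of them were called (6.88%, beside 4.64% of all genes), or 9 without the pair of arrays that stood apart (5.62%, beside 1.61%). The part of inherited flanking DNA in these 4 calls, and in that of Ftcd outside the window, was not tested.

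**Figure D3:**
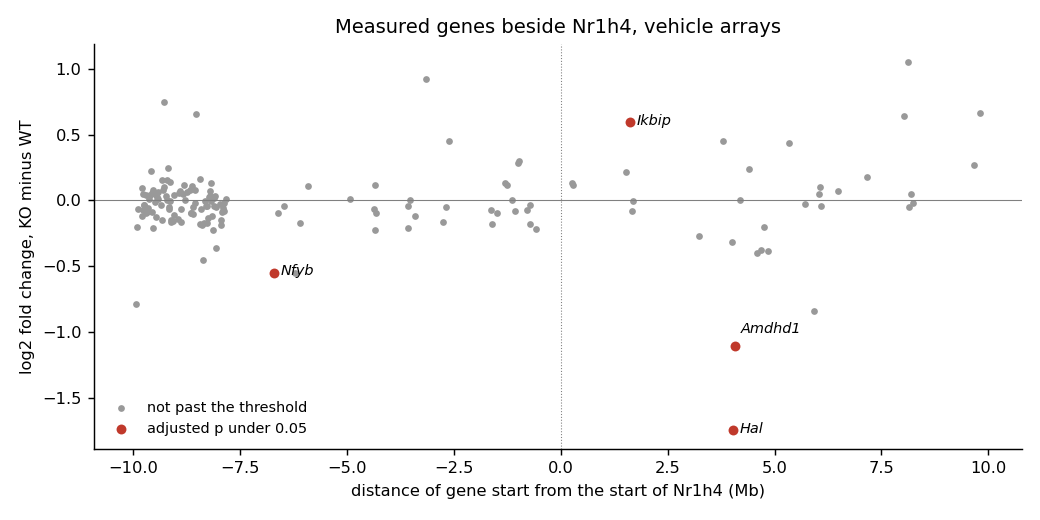
Log2 difference of whole-body KO minus WT (vehicle) for 160 measured genes within 10 Mb of Nr1h4, by distance from its start in Mb. Most points lie near 0, and the 4 red points passed an adjusted p under 0.05, with Hal at -1.75 and Amdhd1 at -1.10 side by side.

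Nnt, which encodes the proton-pumping transhydrogenase of mitochondria, is known to differ between mouse strains, since C57BL/6J mice carry a deletion within it. It read 8.34, 8.76 and 8.53 in WT and 9.99, 9.73 and 9.84 in whole-body KO, a rise of 1.31 (SE 0.27, adjusted p = 0.021), with both probe sets higher. All 6 WT arrays, with and without GW4064, lay between 8.34 and 8.76 and all 6 whole-body KO arrays between 9.73 and 10.15. Liver KO arrays with vehicle read 9.84, 10.04 and 8.45, so that replicate 3 lay at the WT level and the others at the KO level, and those with GW4064 read 10.03 to 10.09. The shared error of Nnt includes these arrays. With vehicle its SD was 0.86 in liver KO, beside 0.21 in WT and 0.13 in whole-body KO. The labels give C57BL/6J for all mice, and the part of strain background in this and other calls was not tested. Tmem267, described above, starts 0.153 Mb from Nnt on the same chromosome and fell; of 39 measured genes within 10 Mb of Nnt it was the 1 called (2.56%).

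Lipid and glucose metabolism held few calls. Apoc2, the cofactor of lipoprotein lipase, fell by 0.74 (SE 0.17, adjusted p = 0.041), from 10.87, 11.05 and 11.41 to 10.45, 10.10 and 10.57, and was the 1 called of 28 lipoprotein genes. Dgat2, which makes triglyceride, rose by 0.40 (adjusted p = 0.046) and was the 1 called of 30 genes of fatty acid and triglyceride synthesis (median 0.12). Cholesterol synthesis and uptake had 0 of 21 called, though 19 of the 21 were above 0 (median 0.13), and relative to the same WT arrays the liver KO had a median of -0.54. Fatty acid oxidation had 0 of 31 called (median -0.04), and of 22 glucose genes Igfbp2 was the 1 that fell. Xdh, xanthine dehydrogenase, rose by 0.41 (adjusted p = 0.028) in vehicle arrays and was 0.22 lower with GW4064 without passing (adjusted p = 0.17), or 0.16 lower without the pair (adjusted p = 0.58).

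Alas1, the rate-limiting enzyme of heme synthesis, stood out by its opposite values in both knockouts and was picked for that after the values were seen. It read 11.97, 11.66 and 12.03 in WT, 10.52, 11.26 and 11.14 in whole-body KO, and 12.19, 12.68 and 12.37 in liver KO. The fall against WT was 0.91 (SE 0.21, adjusted p = 0.039), and the whole-body KO was 1.44 lower than the liver KO (adjusted p = 0.0067). With GW4064 the whole-body KO read 11.97, 12.10 and 11.98 and did not differ from WT past the threshold (difference 0.01, adjusted p = 0.98), nor without the pair (0.10, adjusted p = 0.94).

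Secreted defence proteins of the liver gave few calls. Of 36 measured genes of complement and coagulation 1 rose and 2 fell, and 30 were below 0 (median -0.13, beside -0.01 over all genes). Hc, the fifth complement component, read 12.84, 12.69 and 12.78 in WT and 12.38, 12.31 and 12.09 in KO (difference -0.50, SE 0.09, adjusted p = 0.012). Cfi, which inactivates complement, fell by 0.42 and F11, a coagulation factor, rose by 0.64. Acute-phase genes had 0 of 35 called (median -0.01), interferon response 0 of 30 (median -0.05), and among 32 genes of chemokines, cytokines and NF-kB, Tnfaip2 rose by 1.08 and Rarres2 fell. The other probe set of Tnfaip2 was only 0.23 higher, without an unadjusted limma p under 0.05. Saa3, a serum amyloid, read 7.44, 7.71 and 7.73 in WT and 8.97, 8.98 and 9.10 in KO, without overlap, and its difference of 1.39 did not pass (SE 0.47, adjusted p = 0.20). The shared error includes WT arrays with GW4064 that read 10.79, 9.32 and 7.52. With the 6 compared arrays alone Saa3 passed (adjusted p = 0.00040), as it did without the pair of GW4064 arrays that stood apart (adjusted p = 0.017).

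Hepatocytes differ along the lobule, and the lists for both ends leaned opposite ways. Of 20 measured pericentral genes 17 were above 0 and 2 rose, Gstm3 and the ammonium transporter Rhbg (0.90, adjusted p = 0.039), with a median of 0.23. Of 18 periportal and urea cycle genes 13 were below 0 and 2 fell, Hal and Pigr, with a median of -0.18. By array, the pericentral median relative to the WT mean was 0.18 to 0.32 in KO and -0.36 to 0.13 in WT, and the periportal median -0.19 to -0.17 in KO and -0.11 to 0.12 in WT, so the groups did not overlap in either. Other lists were separated in the same way, among them those of glucose, phase II conjugation, complement, endothelium, retinol and metallothioneins. Such separation was therefore not particular to genes of the lobule. In GW4064 arrays the KO differed from WT by medians of 0.09 and -0.02, or 0.05 and -0.13 without the pair. The circadian clock (18 genes), the cell cycle (34), male-biased (17) and female-biased (16) liver genes, retinol metabolism (17), metallothioneins with iron genes (21), the fetal liver list (23) and the nuclear receptors (28) had 0 genes higher and 0 lower. Cyp2b9, a female-biased gene, read 4.45, 4.65 and 4.64 in WT and 5.14, 4.42 and 8.18 in KO (limma adjusted p = 0.66). Ugt2b38, a male-biased gene, was 2.34 lower without overlap and did not pass (adjusted p = 0.22). In KO with GW4064 list medians by array ran from -2.04 to 0.165 (male-biased) and 0.05 to 1.89 (female-biased). In KO with vehicle they ran from -0.37 to 0.10 and -0.09 to 0.06. The stress pseudokinase Trib3 (0.72) was the 1 called of 27 genes of endoplasmic reticulum stress, and Atg10 (0.60) the 1 of 26 of autophagy.

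Among markers of other liver cells, those of stellate cells and matrix held 2 rises, the platelet-derived growth factor receptors Pdgfra and Pdgfrb. Pdgfra read 5.78, 5.94 and 5.94 in WT, 6.60, 6.54 and 6.57 in whole-body KO and 5.69, 5.79 and 5.80 in liver KO. It was 0.68 above WT (SE 0.14, adjusted p = 0.020) and 0.81 above the liver KO (adjusted p = 0.016), and again 0.64 above the liver KO with GW4064 (adjusted p = 0.021), or 0.56 without the pair (adjusted p = 0.042); its other probe set was 0.15 lower in KO, and the call was lost for the mean of both probe sets. Pdgfrb read 5.67, 5.35 and 5.87 in WT and 6.34, 6.01 and 6.68 in KO (difference 0.72, SE 0.16, adjusted p = 0.042). Its other probe set was only 0.13 higher, without an unadjusted limma p under 0.05. Of the 25 measured genes of the list, 20 were above 0 and 0 fell (median 0.17). The collagen-binding proteoglycans Lum and Dcn, named after their values were seen, were 1.05 and 0.64 higher without overlap and did not pass (adjusted p = 0.070 and 0.12). Both lie within the window around Nr1h4 described above, 8.11 and 8.03 Mb from its start, and both passed with GW4064 (1.54, adjusted p = 0.0028, and 0.96, adjusted p = 0.0061), as they did without the pair of arrays that stood apart (1.17, adjusted p = 0.029, and 0.67, adjusted p = 0.035). Des and Lrat, which mark stellate cells and are named for that, differed by -0.14 and 0.17.

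With GW4064, 14 of the 25 stellate and matrix genes were higher in whole-body KO than in WT and 8 were higher than in liver KO, with medians of 0.83 and 0.48. By array the list median relative to the WT vehicle mean was -0.11 to 0.13 in WT, 0.11 to 0.29 in whole-body KO and -0.10 to 0.10 in liver KO with vehicle. With GW4064 it was -0.67 to -0.20 in WT and 0.20 to 0.59 in whole-body KO, so that both groups lay further from 0 there. Without the pair of arrays that stood apart, 10 genes were higher than in WT and 5 higher than in liver KO, with medians of 0.62 and 0.41. Gelsolin (Gsn), an actin-severing protein picked out after its values were seen, read 6.66, 6.25 and 6.62 in WT, 8.13, 7.46 and 7.79 in whole-body KO and 7.14, 6.96 and 6.61 in liver KO. It was 1.29 above WT (SE 0.21, adjusted p = 0.0063), although 1 of its 6 probe sets was 0.09 lower, and in liver KO 0.40 above WT without passing (adjusted p = 0.47).

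Markers of endothelium and Kupffer cells lay above WT as lists with 0 genes called. Of 22 endothelial markers 19 were above 0 (median 0.19), and the list median by array was 0.15 to 0.28 in KO and -0.05 to 0.03 in WT. Of 21 Kupffer cell and macrophage markers 18 were above 0 (median 0.25), at 0.04 to 0.44 in KO and -0.10 to 0.12 in WT, with overlap. Bile duct (12 genes), lymphocyte (18), neutrophil and monocyte (11), red cell (8) and pancreas, muscle, fat and gut markers (15) had 0 called and medians between -0.08 and 0.02. In RNA of whole liver, more cells of a type and more RNA per cell cannot be told apart, and the part of cell makeup in the rises of Pdgfra, Pdgfrb, Gdf10 and Gsn was not tested.

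**Figure D4:**
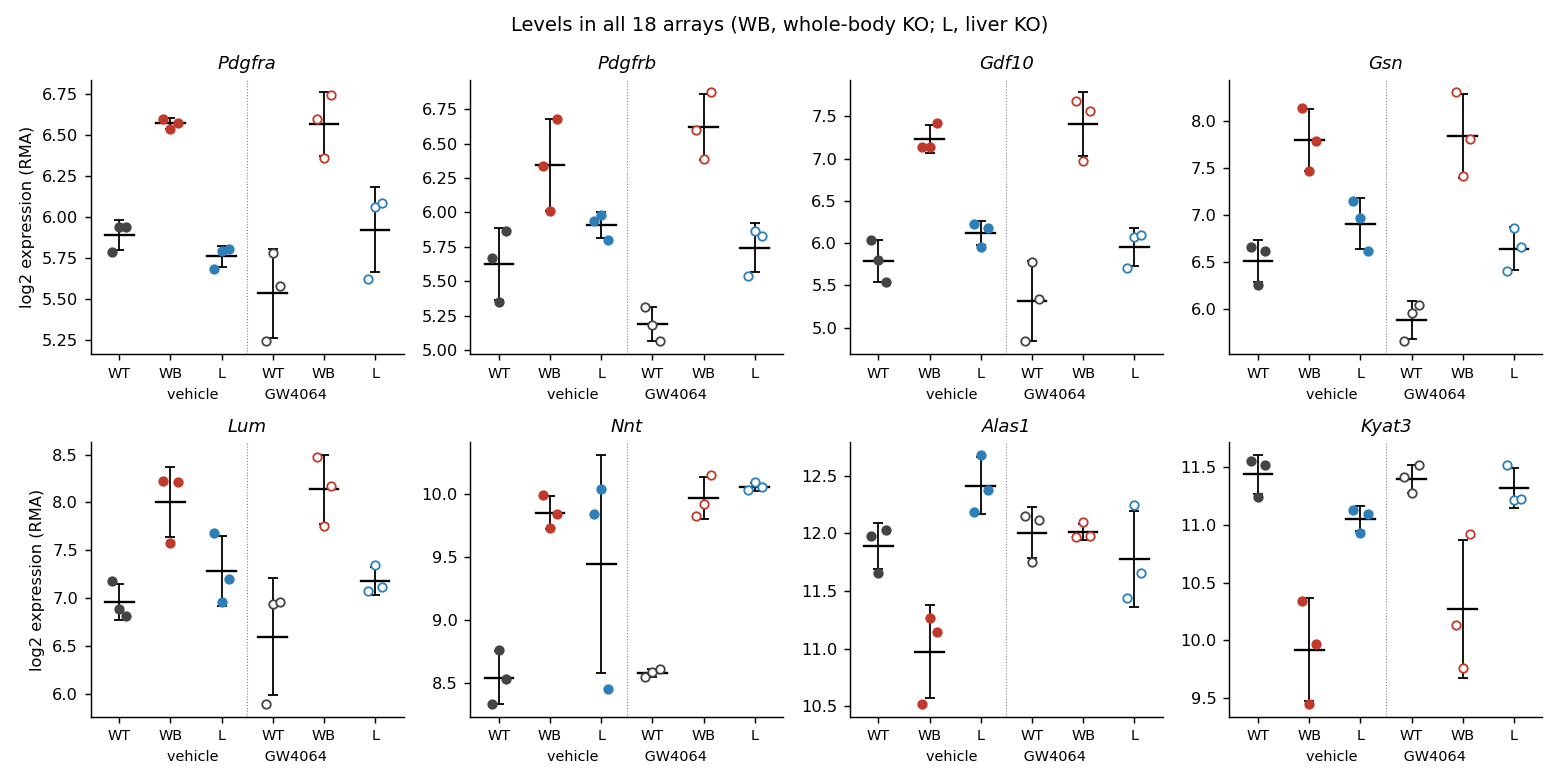
Log2 expression of 8 genes in all 18 arrays, filled points for vehicle and open points for GW4064, with the mean and 1 SD (n = 3). Pdgfra, Gdf10 and Gsn have higher means in whole-body KO than in both other genotypes under either treatment; Nnt separates WT from whole-body KO, with 1 liver KO array at the WT level (8.45); Alas1 is low in whole-body KO with vehicle only.

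Arrays with GW4064 hold the same genotypes in other samples, and the vehicle calls were read there. Across all genes the whole-body KO had 326 genes higher (2.63%) and 249 lower (2.01%) than WT with GW4064, and 106 and 94 without the pair of arrays that stood apart. Of the 74 genes higher with vehicle, 70 were above 0 and 42 passed in the same direction there, and of the 67 lower genes 65 were below 0 and 34 passed. Without that pair, 71 and 64 kept the sign and 30 and 31 passed. All 3 KO arrays lay above all 3 WT arrays for 56 of the 74 (8.40% of all genes did), and below them for 48 of the 67 (11.4% of all genes). Without the pair, 2 KO arrays lay above 2 WT arrays for 64 of the 74 (19.3% of all genes) and below them for 58 of the 67 (22.6%). These arrays repeat the genotype and not the condition, as the agonist was given. For the difference between both genotype effects limma called 0 genes, with 1017 at an unadjusted p under 0.05.

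**Figure D5:**
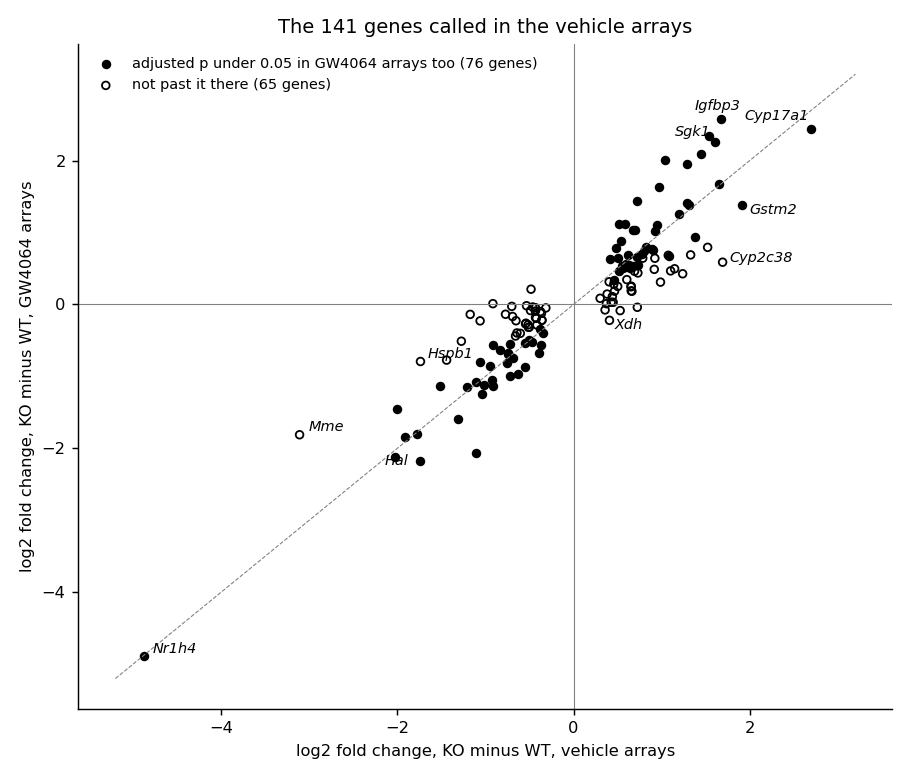
The 141 genes called with vehicle, by their log2 difference of whole-body KO minus WT in vehicle arrays (x axis) and in GW4064 arrays (y axis), which share no array. Filled points are the 76 genes that passed in GW4064 arrays too, and open points the 65 that did not, among them Cyp2c38, Mme and Hspb1; the dashed line marks equal values.

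Values of the largest changes in both sets of arrays show where they differ. Cyp17a1 was 2.44 higher in KO with GW4064 (adjusted p = 0.016), Gstm2 1.38 (adjusted p = 0.00025), Igfbp3 2.58 (adjusted p = 6.4e-05) and Gdf10 2.09 (adjusted p = 6.4e-05). Rarres2 (-1.84), Hal (-2.18), Olig1 (-1.80) and Tmem267 (-2.12) fell there too, and these 8 genes also passed without the pair of arrays that stood apart. Mme was 1.81 lower and did not pass (adjusted p = 0.057): WT arrays with GW4064 read 4.49, 6.46 and 7.46, the first of them from an array that stood apart, and without the pair the difference was -3.02 (adjusted p = 0.00027). Nnt, 1.38 higher with GW4064 (adjusted p = 0.0061), no longer passed without the pair (1.27, adjusted p = 0.069), nor did Apoc2, Hc, Fmo1, F11, Rhbg, Hnf4a, Ikbip, Nfyb, Abcc9, Homer2 and Cyp2g1. For Nnt the shared error includes the liver KO vehicle array that read 8.45, described above. Cyp2c38, Pdk1 and Snhg11 were 0.59, 0.69 and 0.79 higher without passing. Without the pair Pdk1 passed (0.88, adjusted p = 0.044), whereas Cyp2c38 (0.75, adjusted p = 0.53) and Snhg11 (0.72, adjusted p = 0.35) did not. Igfbp2 was 0.77 lower with the pair (adjusted p = 0.10) and passed without it (-1.21, adjusted p = 0.028).

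Between the knockouts, 52 genes were higher (0.420%) and 32 lower (0.258%) in whole-body than in liver KO with vehicle, and 134 (1.08%) and 89 (0.718%) with GW4064. The vehicle counts share the whole-body KO arrays with the calls described here, so only single values are given for them above. They also rest on few arrays, with 10, 12 and 10 higher and 10, 5 and 4 lower genes without whole-body KO replicate 1, 2 or 3. In GW4064 arrays, which share none but enter the same estimate of the spread, 15 of the 74 genes higher than WT with vehicle were called higher than in liver KO and 0 lower. Of the 67 lower genes, 9 were called lower and 3 higher: Ces1g, Gpld1 and, named after its values were seen, the cell cycle gene Cks2 (0.76, adjusted p = 0.010). Without the pair of arrays that stood apart the counts were 12 and 0, and 6 and 3, with Gpld1 at 0.42 (adjusted p = 0.027) and Cks2 at 0.65 (adjusted p = 0.040). Besides Gstm2, Gdf10 and Pdgfra the 15 included Abcc9, a subunit of potassium channels (0.68, adjusted p = 0.046), and Anxa1, the phospholipid-binding protein annexin (0.76, adjusted p = 0.0056), both picked out after their values were seen. Without the pair these were 0.69 (adjusted p = 0.049) and 0.82 (adjusted p = 0.0077). With vehicle Abcc9 was 0.82 above WT and Anxa1 0.52. In liver KO arrays with vehicle the 74 and 67 genes had median differences of 0.40 and -0.45 from the same WT arrays, beside 0.72 and -0.69 in the whole-body KO; both comparisons share the WT arrays.

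Many of the named calls were lost when 1 array was left out, most of them whichever of several arrays it was. Of 52 named genes past the threshold, 18 still passed whichever of the 6 arrays was left out, among them Nr1h4, Mme, Rarres2, Ces1g, Gpld1, Kyat3, Hal, Gstm2, Igfbp3, Gdf10 and Gsn. The calls of Cfi, Dgat2, Fmo5 and Hspb1 were lost without any 1 of the 6. Those of Amdhd1, Apoc2 and Rhbg were lost without any array but WT replicate 1, those of Nnt, Trib3 and Xdh without any but WT replicate 2, and those of Abcc9, Anxa1, Gstm3, Nfyb and Pdgfra without any but WT replicate 3. For Alas1, Fmo1, Rcan2 and Sgk1 the exception was KO replicate 2, and for Tnfaip2 KO replicate 3. Cyp17a1 and Pdgfrb were lost without WT replicate 1 or 2 or KO replicate 1 or 3, and F11 without WT replicate 1 or 2 or KO replicate 1 or 2. Atg10 and Ikbip were lost without WT replicate 2 or KO replicate 1 or 3, Cyp2c38 without WT replicate 1 or 3 or KO replicate 3, Itih5 without WT replicate 1 or 3 or KO replicate 2, and Snhg11 without WT replicate 3 or KO replicate 1 or 3. Cyp2g1 and Hc were lost without WT replicate 1 or KO replicate 3, Homer2 without WT replicate 2 or KO replicate 1, Gstt2 and Olig1 without KO replicate 3, and Igfbp2 without KO replicate 2.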

How the data were processed

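Liver RNA of 18 mouse arrays (3 per genotype and treatment) was read from the deposited log2 values, which the authors made with RMA (version not given). The probe sets are those of a 3′ array, whereas the methods name a gene array, and the methods give another GW4064 dose and number of gavages than the labels, with an overnight fast; labels were followed here. Of 22690 probe sets, 20393 had 1 symbol, 691 several and 1606 none; each of 12394 genes was read from its probe set with the highest mean. A limma fit (version 3.58.1, R 4.3.3) with 6 group means over the 18 arrays (12 residual degrees of freedom) gave contrasts, two-sided, with Benjamini-Hochberg adjustment over all genes; it was tested on simulated data. The methods give 3 WT mice, but for the dose and gavages that differ from the labels, so these may not be the mice of the WT arrays. For all groups here the labels give replicate numbers only. The p-values therefore measure the spread between these arrays, and their number limits the precision. The members and the 43 gene lists were chosen with earlier results of these data known. Named are the 12 largest rises and falls with non-overlapping arrays (predicted genes passed over), preset bile acid genes, and in each list up to 4 members with the lowest adjusted p, or 2 by unadjusted p where none passed; other genes are marked in the text. Alternatives were: the 6 compared arrays alone, a trended and robust prior, weights per array, quantile normalization or centring on medians, a filter that removed the 40% dimmest genes, means or all of a gene's probe sets, a replicate block, the methods' t-test, leaving out each array, and, added after seeing the data, leaving out the pair of GW4064 arrays with the widest relative expression. Promoters, names and distances are RefSeq, GRCm38.p6.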

Additional observations from a re-analysis of the deposited data

Results flagged for a closer look

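Genes that the rule names, or that were named after their values were seen, are given here where the effect of the whole-body KO and that of the liver KO, both relative to WT with vehicle, differed at a limma adjusted p under 0.05; values are the log2 difference of whole-body minus liver KO. Of genes called against WT, Gstm2 was 1.06 higher, Gdf10 1.11, Tnfaip2 1.15, Trib3 0.74, Pdgfra 0.81, Abcc9 1.09 and Anxa1 0.66. Kyat3 (-1.13) and Alas1 (-1.44) were lower, and Ces1g (1.56) and Gpld1 (0.36) were higher than in liver KO while lower than in WT. Of genes not called against WT, Cyp26a1, which degrades retinoic acid, was 1.69 higher, Pdk4, a pyruvate dehydrogenase kinase, 1.14, Robo1, a guidance receptor, 1.07 and Nr2c1, an orphan nuclear receptor, 0.50, and Hnf4a was lower (-0.47). In GW4064 arrays the same difference was 1.36 for Pdk4 (adjusted p = 0.0082) and 1.13 for Robo1 (adjusted p = 0.018), and 0.46 for Cyp26a1 (adjusted p = 0.58). Without the pair of arrays that stood apart these were 1.37 for Pdk4 (adjusted p = 0.020), 0.86 for Robo1 (adjusted p = 0.043) and 0.30 for Cyp26a1 (adjusted p = 0.82). Tnfaip2 (0.61, adjusted p = 0.19), Trib3 (0.045, 0.93), Alas1 (0.24, 0.65), Nr2c1 (0.14, 0.58) and Hnf4a (-0.37, 0.068) did not pass with GW4064 either, nor without the pair. The remaining genes given here passed there both ways. Nr2c1 lies within the window around Nr1h4, 4.69 Mb from its start, and its other probe set differed from WT by -0.08.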

How the results depend on the processing

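Counts of genes higher and lower in the whole-body KO (74 and 67) stayed within 1.5 times in 8 of the other limma settings over the same arrays, except that all probe sets gave 119 higher; leaving out 1 array gave 28 to 49 and 28 to 53, and without the pair of GW4064 arrays 141 and 125. The methods' t-test after Benjamini-Hochberg gave 0 and 5, and 107 and 67 at the study's thresholds, where all probe sets gave 226 and 126. Against the liver KO (52 and 32), the trended prior gave 29 higher, array weights 161 and 99, leaving out 1 array 10 to 48 and 4 to 19, and leaving out the GW4064 pair 88 higher. With GW4064 (326 and 249), all probe sets gave 512 higher and leaving out that pair 106 and 94. For the difference of both genotype effects (0 and 0) the replicate block gave 1 and 1, and leaving out 1 array 0 to 1 each way. Of 52 named genes past the threshold, 17 passed in every limma setting: Ces1g, Eppk1, Ftcd, Gdf10, Gpld1, Gsn, Gstm2, Hal, Igfbp3, Kyat3, Mme, Nr1h4, Pdk1, Pigr, Rarres2, Tmem267 and Wdfy1, the last of which was chosen after its values were seen. Of 65 named genes not past it, 18 passed in 1 or more other settings, 11 of them with the 6 compared arrays alone and 11 without the GW4064 pair. Of 25 lists with 0 genes called, 14 had 1 to 3 called in some other setting. Signs changed for genes near 0 that were not called: Fgfr4 was -0.0003 with quantile normalization, -0.084 as the mean of probe sets and -0.065 to 0.084 without 1 array; Klb -0.0003 as the mean of probe sets; Cyp27a1 0.022 with quantile normalization and -0.076 to 0.056 without 1 array; and, without 1 array, Baat -0.013 to 0.13, Abcb4 -0.23 to 0.024 and Slco1a1 -0.020 to 0.26. Causes of these changes were not tested. Replicate numbers paired the arrays weakly: deviations of same-numbered WT and KO arrays correlated at 0.12, 0.085 and 0.15, each array best with its own number. Arrays with different numbers correlated at -0.11 to -0.003. What same-numbered arrays share is not given in the sources used here and was not tested. The main fit ignored the numbers, and with the replicate block 75 and 67 genes were called. The neutrophil list kept no gene when the 40% dimmest were left out. With 3 arrays a group, an absent call does not show that levels were alike.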
